A study of Mus musculus with 2 samples.

Results

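Of 1018 predicted microRNA genes that carry a Gm number in place of a microRNA name, 51 (5.01%) had at least 1 sense-strand count in microRNA libraries of mouse myocytes. These 51 genes were chosen by that count. Their GENCODE M21 name had to begin with Gm and a number, and at least 1 read had to be counted on the gene's own strand in either library. Their levels are therefore a description, and no test rests on the choice. A further 3 Gm-named genes were left out and were not analysed here. Just inside the limit stood 16 genes with 1 count over both libraries, and outside it stood 967 genes with 0.

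The cells were C2C12, a myoblast line grown out of crush-injured thigh muscle of C3H mice, here differentiated for 72 h into myocytes. The series held 1 group of 2 libraries, numbered by the labels as biological replicates 1 and 2. There was no other condition. Each library has its own biosample, but nothing says that separate cultures were taken through differentiation, so differences between the libraries may be technical. C2C12 is a single established line. Sense-strand counts assigned to microRNA genes totalled 7581366 in replicate 1 and 9865298 in replicate 2, while 22.0% and 17.9% of all reads stood in a separate multi-mapped entry of the tables. No source names the counting program, so how such reads were treated is read from that entry alone. All 9 muscle microRNA genes examined had counts and together took 35.5% and 42.8% of the assigned counts, nearly all of it from Mir206. The lists for other cell types summed to at most 183 CPM (blood microRNAs, replicate 2), where CPM are counts per 1000000 assigned sense counts. Of the 5 neural genes listed 4 were measured, and 3 of these had 0 counts. In replicates 1 and 2 Mir206 had 340841 and 416794 CPM, and Mir133b had 13610 and 10568. Mir499, Mir208b and Mir486 ranged from 30.7 to 564 CPM. Mir1a-1, Mir1a-2, Mir133a-1 and Mir133a-2 ranged only from 1.01 to 4.22 CPM. Reads that fit several loci may stand in the multi-mapped entry, so these low values are no measure of the mature microRNAs. Whether such reads lowered them, or the sums of the lists for other cell types, was not tested.

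A microRNA is cut in steps from a hairpin in a longer transcript, first by Drosha with its partner DGCR8 in the nucleus and then by Dicer in the cytoplasm, and bases 2 to 8 of the mature strand, the seed, do most of the pairing with target messages. Gm numbers are placeholder symbols that mouse nomenclature gives to predicted genes. Automated annotation places such microRNA models where the genome resembles a known microRNA and can fold into a hairpin, so a model can also fall on a repeat, on another small RNA or on an exon of a message. A count per gene does not separate a read cut by Dicer from a fragment of the transcript around it, and these cannot be told apart in the tables.

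Only 4 of the 51 genes lay in a microRNA hairpin of RefSeq on the same strand, and their mature strands are shown first because these are the members with a named product. The sequences are those of RefSeq (GRCm38.p6), 5′ to 3′, with the seed in capitals.
mmu-miR-9769-5p: aGGCACAGaauuaggcccgacc
mmu-miR-9769-3p: uAGGGUCUguucuguguccucc
mmu-miR-935: cCCAGUUAccgcuuccgcuaccgc
mmu-miR-3618-5p: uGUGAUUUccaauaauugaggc
mmu-miR-3618-3p: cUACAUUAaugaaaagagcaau
mmu-miR-3154: cAGAAGGGgagucgggagcgga
None of these 6 seeds belonged to a mature microRNA that RefSeq lists for any other gene. The genes are Gm38670 (miR-9769), Gm23450 (miR-935), Gm24572 (miR-3618) and Gm23363 (miR-3154).

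The largest count belonged to a model of another kind, Gm23935, one of 6 near-identical short models at separate loci. They are shown because their sequence bears on how the counts can be read. These are GENCODE M21 gene models (mm10), written as DNA on the gene's strand, and capitals mark bases that differ from Gm23935.
Gm23935: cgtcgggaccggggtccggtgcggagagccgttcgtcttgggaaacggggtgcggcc
Gm24187: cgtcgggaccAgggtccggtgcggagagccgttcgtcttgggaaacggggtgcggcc
Gm25911: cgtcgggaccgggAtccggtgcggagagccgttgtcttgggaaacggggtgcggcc
Gm23388: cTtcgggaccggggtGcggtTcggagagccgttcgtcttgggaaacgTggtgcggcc
Gm24270 and Gm24245 are identical to Gm23935 over all 57 bases, while Gm25911 has 1 base fewer.

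As a group the Gm-named genes were rarely seen and, when seen, shallow. Counts were found for 5.01% of them, against 652 of 1174 Mir-named genes (55.5%) and 32.2% of all 2202 microRNA genes. At least 10 counts in each library were reached by 8 Gm-named genes (0.786%) and by 303 Mir-named genes (25.8%). The median count over both libraries was 3 for the 51 genes and 23 for the 652 Mir-named genes with counts. These shares are descriptions, since the set was chosen by its counts.

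The 51 genes had 830 counts in replicate 1 and 551 in replicate 2, which is 0.0109% of the assigned counts (95% Wilson interval 0.0102% to 0.0117%) and 0.00559% (0.00514% to 0.00607%). Such intervals cover counting error only, because PCR copies without molecular identifiers are not independent molecules. Their summed level was 109 CPM in replicate 1 and 55.9 CPM in replicate 2 (82.7 ± 37.9, SD, n = 2). Without Gm23935 the sums were 37.2 and 48.7 CPM, so that replicate 2 became the higher library.

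The counts were concentrated in 3 genes, Gm23935, Gm49347 and Gm26117, which held 1038 of the 1381 counts (75.2%). Of the 51 genes, 13 had at least 10 counts over both libraries, 22 had 2 to 9 and 16 had 1. Counts in both libraries were found for 23 genes. The 11 genes with counts in replicate 1 alone had at most 3 counts each. The 17 with counts in replicate 2 alone had at most 7. Where a library had no count, a level of 3 counts was still possible, which is 0.396 CPM for replicate 1 and 0.304 CPM for replicate 2. A difference of this size was not detectable at this depth.

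**Figure D1:**
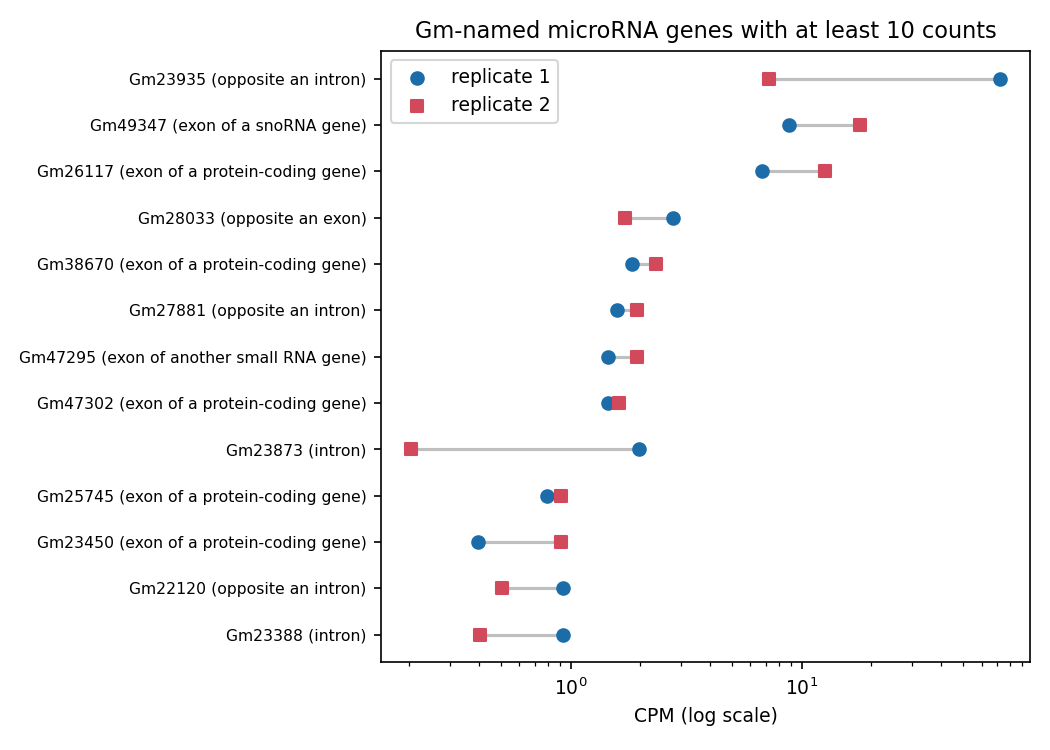
CPM on a log axis of the 13 Gm-named genes with at least 10 counts over both libraries, with replicate 1 as circles and replicate 2 as squares joined by a line, and each gene's place in the annotation in brackets. Gm23935 is the highest at 72.3 CPM in replicate 1 and falls to 7.20 in replicate 2, while most others lie near or below 2 CPM in both.

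Gm23935 (ENSMUSG00000076258.1; mm10, chr16:11144125-11144181, plus strand) had 548 counts in replicate 1 and 71 in replicate 2, which is 72.3 and 7.20 CPM (39.7 ± 46.0, SD, n = 2). It made up 66.0% of all counts of the 51 genes in replicate 1 and 12.9% in replicate 2. In the annotation it lies opposite an intron of Zc3h7a, a CCCH zinc finger protein gene, in no exon of any annotated gene. Its mean level gave it rank 167 of 2202 genes, next to Mir1843a (53.6 and 28.0 CPM) and Mir701 (63.0 and 14.7 CPM).

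Its sister models had few counts. Gm24270, in an intron of the kinase-like gene Peak1 (chr9:56223715-56223771), had 5 and 2 counts, and Gm24245 (chr4:139338304-139338360), between genes, had 3 and 0. Gm24187 (chr13:9834469-9834525), 1 base apart from Gm23935, had 6 and 1. Gm23388, in an intron of the zinc finger gene Zfp791 (chr8:85112012-85112068), is 4 bases apart and had 7 and 4. Gm25911 (chr1:167340369-167340424) had 2 and 0.

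All 5 sister models were thus higher in CPM in replicate 1, as Gm23935 was, although they held only 23 and 7 counts together. A read lying wholly inside the 57 bases and matching them exactly would fit Gm23935, Gm24270 and Gm24245 alike. Copies of this sequence outside the annotated microRNA models, for example in ribosomal RNA repeats, were not analysed here. The 548 and 71 counts of Gm23935 are therefore uncertain as a level of that locus. Where those reads begin and end was not analysed here. Gm25732, a 60-base model with 1 count in replicate 1, lies 38 bases before Gm24245 on the same strand of chromosome 4.

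A same-strand exon of another gene was overlapped, in whole or in part, by 29 of the 51 genes (56.9%), against 120 of the 967 Gm-named genes without counts (12.4%) and 269 of 1174 Mir-named genes (22.9%). Seen from the other side, 19.5% of the 149 Gm-named models with such an overlap had counts. Words of 20 bases were counted only in annotated transcripts of the host gene that gave a member its place. Of the 29 members, 15 had all their words there and 14 had some outside it. At the extreme was Gm47286, with 5 of 109 words in H1fx. Gm49346 was among the 14, with 84 of 87 words in Snora81. All 87 are in Eif4a2, whose exon it also overlaps. Of the 418 Gm-named models between genes 1.67% had counts, and of the 236 in introns 3.39% had counts. Among Mir-named genes the shares with counts were 67.3% with an exon overlap, 42.7% between genes and 60.1% in introns. No test is given for these shares, since genes are not replicates and the set was chosen by counts.

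**Figure D2:**
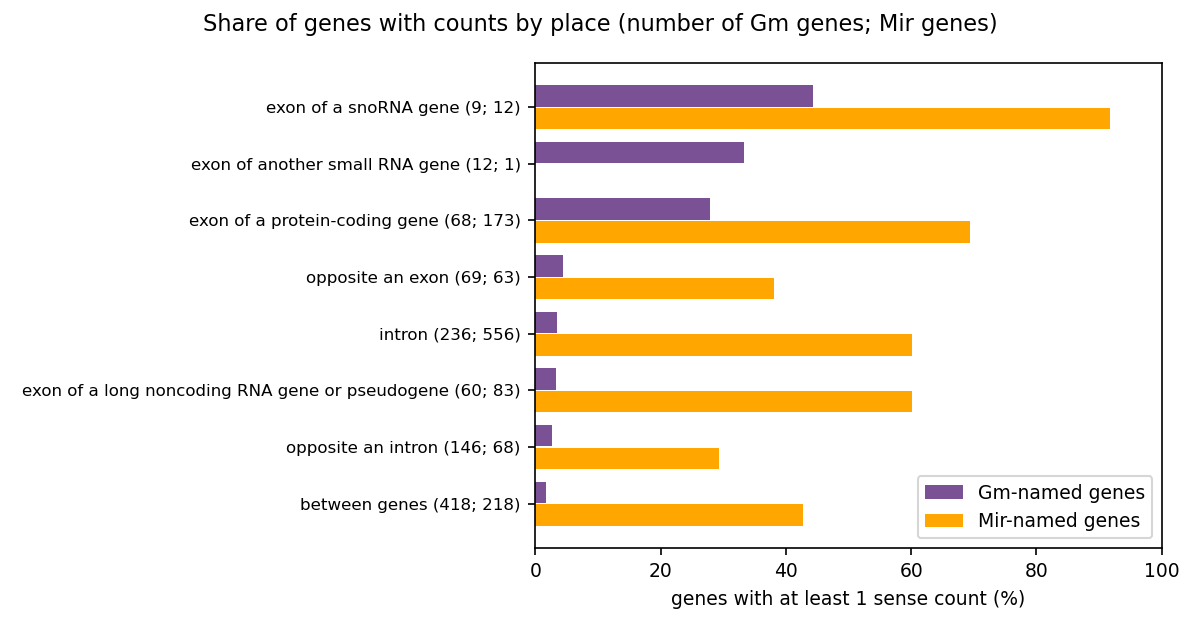
Percent of genes with at least 1 sense count in either library, by place in the annotation, for Gm-named and Mir-named microRNA genes, with the number of genes of each kind in brackets. For Gm-named genes the share runs from 1.67% between genes to 44.4% for models that overlap snoRNA exons, and the single Mir-named gene in an exon of another small RNA had no counts.

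Exons of other small RNA genes were overlapped by 4 members with 16 and 24 counts, or 2.11 and 2.43 CPM. Most of these counts were those of Gm47295, with 11 in replicate 1 and 19 in replicate 2, or 1.45 and 1.93 CPM (1.69 ± 0.336, SD, n = 2). Gm47294 had 3 and 4 counts, Gm47299 had 2 and 0, and Gm24105 had 0 and 1. All 4 models share at least 20 bases with other annotated microRNA models, so a read inside such a stretch fits several loci.

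A tRNA-like model, Gm44456 (chr13:21924928-21925016, minus strand), lies between annotated genes and had 2 counts in replicate 1 and 0 in replicate 2. It is shown because 82 of its 89 bases, in capitals, are also in n-TStga1, a serine tRNA gene that the annotation lists among the microRNA genes.
Gm44456: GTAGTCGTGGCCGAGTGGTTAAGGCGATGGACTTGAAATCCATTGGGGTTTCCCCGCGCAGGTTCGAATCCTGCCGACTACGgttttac
The gene n-TStga1 had 4 and 1 counts. A second serine tRNA gene listed there, n-TSaga9, shares 33 bases with Gm44456 and had 10 and 38.

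Exons of protein-coding genes on the same strand formed the largest group, with 19 members and 103 counts in replicate 1 and 209 in replicate 2 (13.6 and 21.2 CPM). The largest share of these counts came from Gm26117 (ENSMUSG00000093340.1; chr15:74563821-74563915, plus strand), in an untranslated exon part of Adgrb1, which encodes the adhesion G protein-coupled receptor BAI1. Gm26117 had 51 and 124 counts, or 6.73 and 12.6 CPM (9.65 ± 4.13, SD, n = 2), and replicate 2 was 1.87-fold higher. Its model is 91.6% G and C, the highest of the 51, and 72 of its 76 words of 20 bases are in annotated Adgrb1 messages.

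Gm38670 (chr7:30552828-30552904, plus strand) is the gene of miR-9769 and overlaps an exon of a noncoding transcript of Hspb6, a small heat shock protein gene of muscle. It had 14 counts in replicate 1 and 23 in replicate 2, or 1.85 and 2.33 CPM (2.09 ± 0.343, SD, n = 2), the highest of the 4 genes with a RefSeq hairpin. The model is shown with both mature arms in capitals.
Gm38670: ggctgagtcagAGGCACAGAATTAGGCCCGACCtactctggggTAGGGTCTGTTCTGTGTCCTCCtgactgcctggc
The count does not say which arm was read. The predicted fold is a single stem with 1 terminal loop and 77.9% of its bases paired.

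Gm47302 (chr1:45311673-45311813, plus strand) spans the start codon region of Col3a1, the gene of a type III collagen chain, and had 11 and 16 counts (1.45 and 1.62 CPM). Fibrillar collagen messages are known to carry a conserved stem-loop around the start codon. All 122 words of 20 bases in the model are in annotated Col3a1 messages. Gm25745, in coding and untranslated sequence of Hsp90b1, the endoplasmic reticulum chaperone of the Hsp90 family, had 6 and 9 counts. Gm23450, the gene of miR-935 in coding sequence of the calcium channel gamma subunit gene Cacng8, had 3 and 9.

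Gm24572 (chr16:18284550-18284637, minus strand), the gene of miR-3618, lies in an untranslated exon part of Dgcr8 and had 5 counts in replicate 1 and 1 in replicate 2. Its host encodes the partner of Drosha, and the Dgcr8 message is known to hold hairpins that the same enzyme complex cuts. The other 13 exonic members had 9 counts or fewer. They included Gm23394 in Ralgapa1 (3 and 6 counts), Gm27920 in the deubiquitinase gene Usp15 (3 and 4), Gm23634 in the tubulin-binding stathmin gene Stmn1 (2 and 4), Gm22133 in the ferritin light chain gene Ftl1 (3 and 2), Gm27322 in the ubiquitin ligase gene Smurf2 (2 and 1) and Gm25994 in the RNA helicase gene Ddx5 (0 and 3). The other 7, in Purb, Pink1, Pa2g4, Ahsa2, H1fx, Ahsa1 and Bsn, had 1 count each, all in replicate 2. Gm22133 shares at least 20 bases with 13 annotated microRNA models and Gm27322 with 6, so a read inside such a stretch fits several loci. Among the 6 was Mir8112, with 96 and 139 counts. Only 39 of the 85 words of 20 bases in Gm27322 are in annotated Smurf2 messages.

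Exons of small nucleolar RNA (snoRNA) genes, whose products guide chemical modification of other RNAs, were overlapped by 4 members with 69 and 183 counts in replicates 1 and 2. Of these, 67 and 177 belonged to Gm49347 (ENSMUSG00000104863.1; chr18:35557132-35557242, plus strand), which overlaps Snora74a, an H/ACA snoRNA. Its level was 8.84 and 17.9 CPM (13.4 ± 6.44, SD, n = 2), so that replicate 2 was 2.03-fold higher. Of the 92 words of 20 bases in its model, 77 are in the annotated Snora74a transcript. The noncoding gene AC121821.1, whose exon it also overlaps, holds 80 of them. The others were Gm47277 on Gm24698 with 0 and 5 counts, Gm49346 on Snora81 with 2 and 0, and Gm47296 on Gm24958 with 0 and 1.

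**Figure D3:**
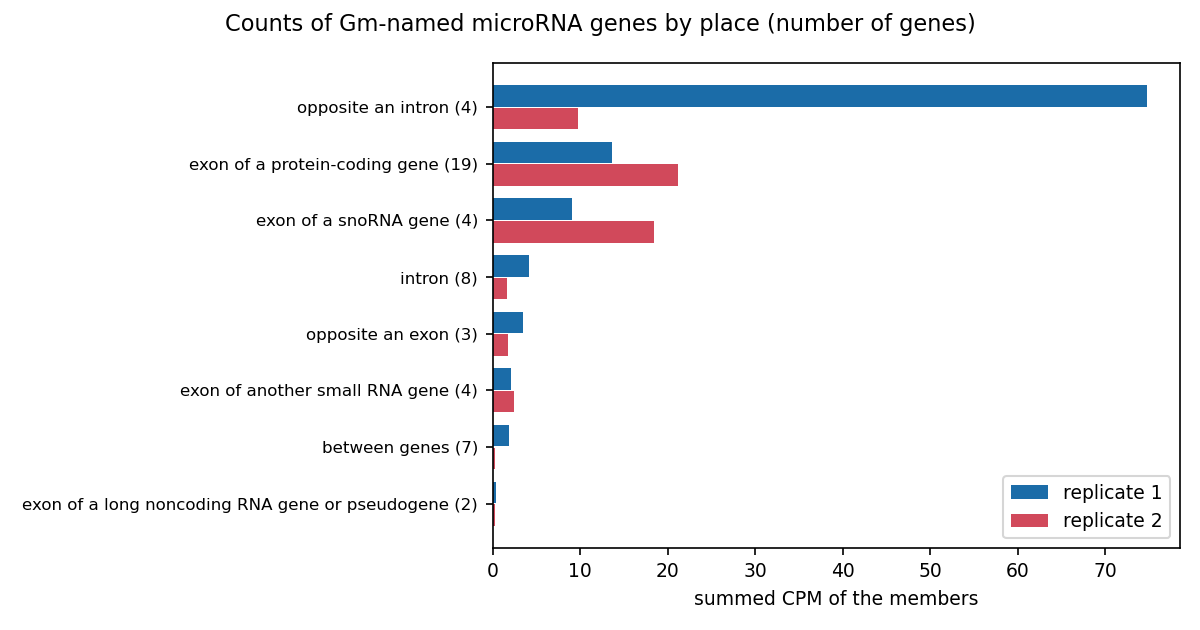
Summed CPM of the members by place in the annotation, with replicate 1 and replicate 2 as separate bars from 0 and the number of genes in brackets. The bar opposite introns in replicate 1 (74.8 CPM) is almost wholly Gm23935, and exons of protein-coding and snoRNA genes are higher in replicate 2.

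Members on the opposite strand of an annotated gene, Gm23935 aside, included Gm28033 and Gm27881. Both are given in full because no other annotated microRNA model shares 20 bases with them.
Gm28033: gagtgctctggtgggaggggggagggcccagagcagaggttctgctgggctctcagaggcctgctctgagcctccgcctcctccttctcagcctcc
Gm27881: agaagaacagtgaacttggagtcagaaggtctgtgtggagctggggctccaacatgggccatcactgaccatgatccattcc
Gm28033 (chr17:35868302-35868397, minus strand) lies opposite coding sequence of Ppp1r18, which encodes the actin-binding protein phostensin. It had 21 counts in replicate 1 and 17 in replicate 2, or 2.77 and 1.72 CPM. Gm27881 (chr1:13262198-13262279, plus strand), opposite an intron of the nuclear receptor coactivator gene Ncoa2, had 12 and 19 counts, or 1.58 and 1.93 CPM. Also on opposite strands were Gm25677, across from an untranslated exon part of Asph (3 and 0 counts), and Gm23363, the gene of miR-3154 opposite the dynamin gene Dnm1 (0 and 1).

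Gm24111 (chr13:48537825-48537921, plus strand) is the mirror of Mirlet7f-1, and the part that pairs with let-7f-5p is in capitals.
Gm24111: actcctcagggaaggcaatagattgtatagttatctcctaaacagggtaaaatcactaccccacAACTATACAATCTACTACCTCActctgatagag
It had 2 counts on its own strand in replicate 1 and 0 in replicate 2, beside 290 and 147 of Mirlet7f-1 across from it. Opposite-strand counts were found at 8 of the 51 genes and summed to 297 and 154, of which Gm24111 held 290 and 147.

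Some members resembled named microRNAs elsewhere in the genome. They are shown with the longest stretch that each shares with the named hairpin in capitals, Mir344d-1 for Gm23873 and Mir3098 for Gm22120.
Gm23873: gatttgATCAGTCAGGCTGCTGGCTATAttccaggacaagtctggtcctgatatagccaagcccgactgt
Gm22120: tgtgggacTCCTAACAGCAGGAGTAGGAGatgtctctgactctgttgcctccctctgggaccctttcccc
Gm23873 (chr7:61750468-61750537, minus strand), in an intron of the long noncoding RNA gene A230057D06Rik, shares 22 bases with Mir344d-1. It had 15 counts in replicate 1 and 2 in replicate 2, or 1.98 and 0.203 CPM. Gm22466, in an exon of the same host, had 0 and 1 counts. Of the Mir344d genes that share sequence with either of them, Mir344d-2 had 0 and 1 counts and Mir344d-3 had 1 and 4. Gm22120 (chr12:105865724-105865793, minus strand) shares 21 bases with Mir3098 and had 7 and 5 counts, while Mir3098 itself had 7 and 11.

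Gm23134 (chr2:157562361-157562447, minus strand) lies in an intron of Blcap, opposite an untranslated exon part of the imprinted gene Nnat, and holds 22 of the 23 bases of miR-708-5p, in capitals.
mmu-miR-708-5p: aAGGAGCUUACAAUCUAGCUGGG
It had 0 counts in replicate 1 and 7 in replicate 2, while Mir708 had 5596 and 3972. Among the 22 members that share 20 bases with another annotated hairpin, this was the pair with the most abundant partner. Whether reads of Mir708 with a changed first base were assigned to Gm23134 was not tested.

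The members not yet named had 5 counts or fewer. Gm24158, in an exon of the noncoding gene Gm11613, had 3 and 2 counts. Gm22518, in an intron of the adapter protein gene Shb, had 2 and 0, and Gm24589, in an intron of the polycystin gene Pkd1, had 1 and 0. Gm22925, in an intron of Sfmbt2, a gene known for the large microRNA cluster that it hosts, had 0 and 1. It shares 20 bases with 12 annotated microRNA models, of which Mir669o had 94 and 29. Gm22955 and Gm25213, between genes, had 0 and 1 each. Gm24157, in an intron of Gm26551, had 2 and 0.

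A smaller share of members than of Mir-named genes was predicted to fold into the single hairpin from which a microRNA is cut. With RNAfold, which finds the structure of lowest free energy, 24 of 51 models (47.1%) formed a single stem with 1 terminal loop. Of the 303 Mir-named genes with at least 10 counts in each library 289 did (95.4%), and of the 967 Gm-named genes without counts 545 (56.4%). Mir-named genes without counts were close to those with counts, at 483 of 522 (92.5%). The median share of paired bases was 63.2% in the members, 61.5% in the Gm-named genes without counts and 72.1% in those 303 Mir-named genes. The median folding energy was −0.352, −0.318 and −0.434 kcal/mol per base. The median GC content was 60.3%, 50.0% and 51.5%.

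The 4 genes with a RefSeq hairpin all formed a single stem, with a median of 71.5% of bases paired and −0.541 kcal/mol per base. A single stem was predicted for 7 of the 13 members with at least 10 counts (53.8%) and for 17 of the other 38 (44.7%), with medians of 63.2% and 63.4% paired bases. RefSeq hairpins covered 4 of the 51 members (7.84%), 7 of the Gm-named genes without counts (0.724%) and 263 of the 303 Mir-named genes (86.8%).

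**Figure D4:**
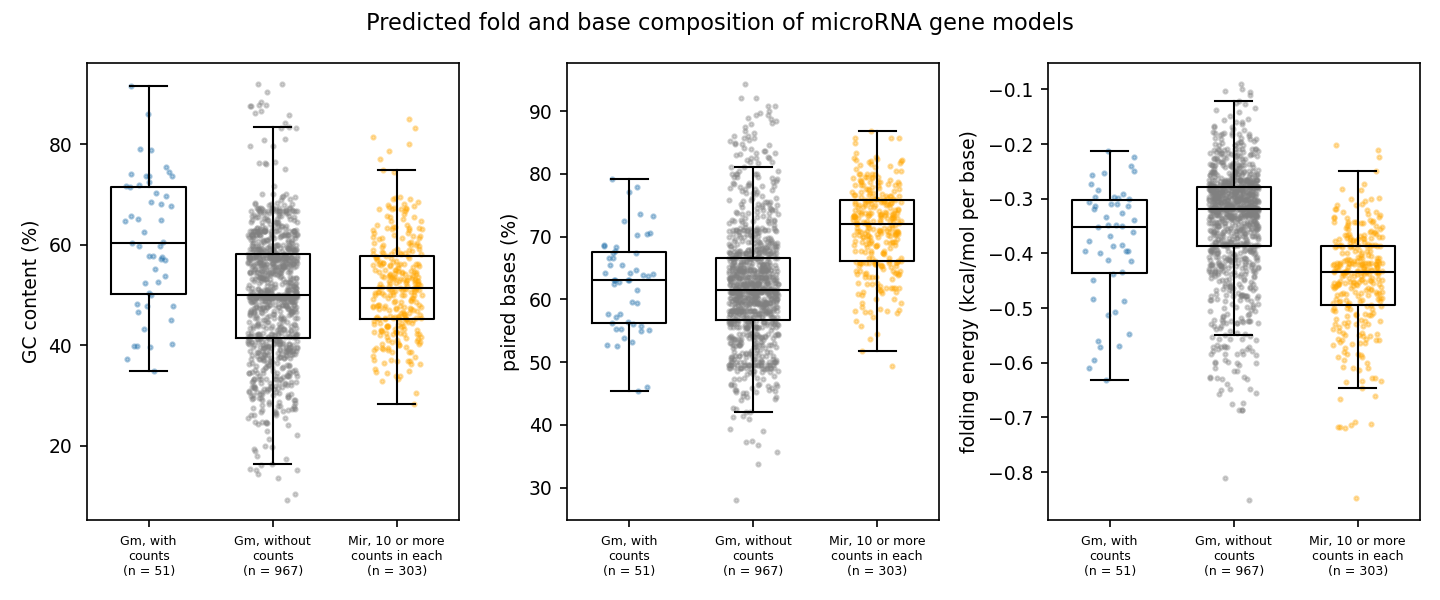
GC content, percent of paired bases and folding energy per base of each gene model (points) with medians and quartiles (boxes; whiskers reach the last point within 1.5 box lengths), for 51 Gm-named genes with counts, 967 without and 303 Mir-named genes with at least 10 counts in each library. The members have the highest median GC content (60.3%) and fewer paired bases than the Mir-named genes (63.2% against 72.1%).

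Shared sequence was less common in the members than in the Gm-named genes without counts. At least 20 bases were shared with another annotated microRNA model by 22 of 51 members (43.1%) and by 793 of 967 genes without counts (82.0%), against 22.0% of all Mir-named genes. A read that lies inside a shared stretch would fit several loci, so a count of 0 for such a model is no measure of its RNA.

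Given a gene's counts over both libraries, their split between the replicates is not fixed by the choice of members, so it was tested. Of the 415 microRNA genes with at least 10 counts over both libraries, 230 (55.4%) differed between the replicates by an exact binomial test with Benjamini-Hochberg adjustment over all 415. This compares 2 libraries and covers counting error only. Of the 13 members tested 4 differed, 2 of them higher in replicate 1 (31.1% of all genes tested were) and 2 higher in replicate 2 (24.3%). Their share of 30.8% lay below that of all genes tested, and the members' counts were low. The median log2 ratio of replicate 1 over replicate 2 was −0.17 for the 13 members and 0.05 for all genes tested. Without its sign, the median was 0.83 for the members and 0.62 for all.

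Gm23935 had the third highest ratio toward replicate 1 of all 415 genes, a log2 ratio of 3.32 (adjusted p = 2.48e-121, exact binomial test). Gm23873 was close to it in size with 3.01 on 15 and 2 counts (adjusted p = 5.56e-04, exact binomial test). Toward replicate 2 stood Gm49347, with a log2 ratio of −1.01 (adjusted p = 7.52e-07, exact binomial test), and Gm26117, with −0.89 (adjusted p = 2.98e-04, exact binomial test).

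The other 9 had log2 ratios from −1.06 for Gm23450 to 1.12 for Gm23388 and adjusted p-values in the exact binomial test from 0.220 for Gm28033 to 1.00 for Gm25745. With 11 to 38 counts each, these genes leave room for differences of that size. Gm38670 of miR-9769 was among them, with −0.32 (adjusted p = 0.612, exact binomial test).

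**Figure D5:**
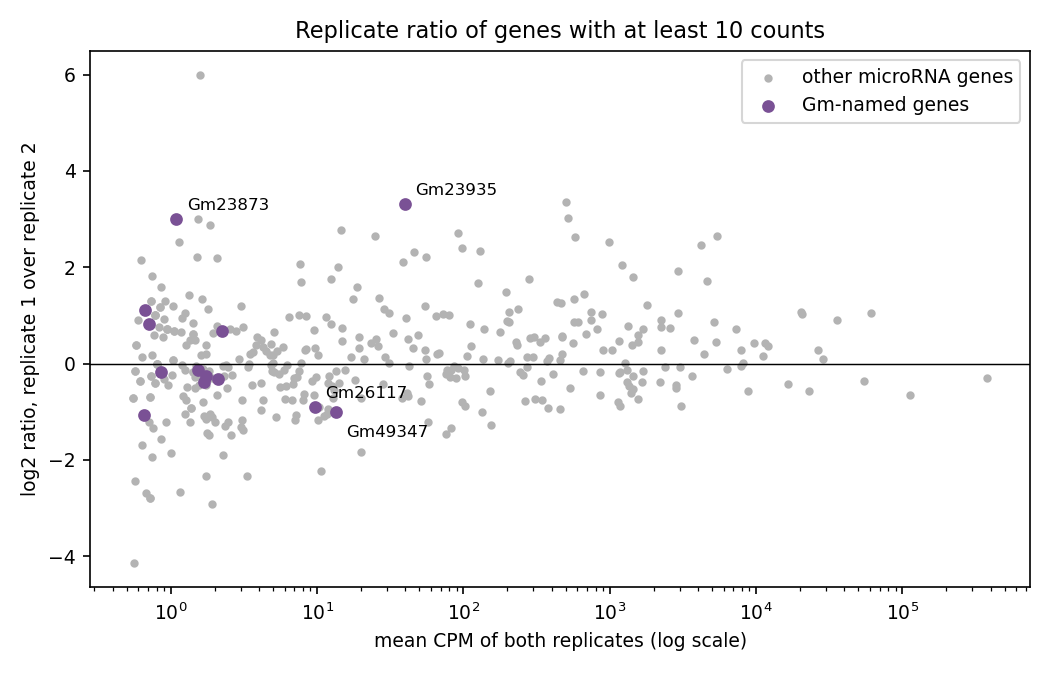
Log2 ratio of replicate 1 over replicate 2 (0.5 counts added to each) against mean CPM on a log axis, for the 415 microRNA genes with at least 10 counts over both libraries, with the 13 Gm-named genes as large points. Gm23935 and Gm23873 lie more than 3 above 0, and Gm49347 and Gm26117 lie below 0.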

How the data were processed

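Small RNA libraries of 2 biological replicates of 1 group were analysed. The labels cite a protocol for adapter trimming. Per the notes deposited with the tables, genes are those of GENCODE M21 on mm10. No aligner or counting program is named by the labels, the notes or the tables. The authors deposited whole-number read counts per microRNA gene, not normalized, in 3 columns (either strand, sense, opposite strand) with 4 summary entries that were left out of library sizes. The sense column was used. All 2202 identifiers matched the annotation, which gave names, coordinates and models.

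CPM were computed here over the sense counts assigned to microRNA genes (7581366 and 9865298). Counts of genes with at least 10 over both libraries were compared by an exact two-sided binomial test in SciPy 1.17.1, adjusted over all 415 genes, with a threshold of 0.05. Log2 ratios carry a pseudocount of 0.5 counts. Simulated counts carried counting error only, at the pooled levels of all microRNA genes. With 8-fold changes between replicate 1 and replicate 2 and 423 genes tested, 99.0% of changed genes were recovered. With 2-fold changes and 418 genes 68.3% were. Of the unchanged genes 3 of 223 and 4 of 219 were called. These shares cover all genes tested, so they do not give the recovery at the members' low counts. Models were folded with RNAfold 2.7.2. A gene's place is the first that it overlaps, in whole or in part, of snoRNA exon, other small RNA exon, protein-coding exon, other exon, intron, opposite an exon, opposite an intron and between genes. Shared sequence means 20 identical bases with an annotated microRNA model at another locus, since no genome sequence was used. Some sequences of members in small RNA exons are not reported here.

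Named genes are the members with at least 10 counts over both libraries, and others that show a shared sequence or a locus. Members with fewer counts were named beyond that rule to account for their host genes, after their values were seen. The members, lists and alternatives were chosen with earlier results of these data known. Alternatives covered the strand column, scaling with edgeR 4.0.16 (TMM) or DESeq2 1.42.0 (size factors), the denominator, count minimums, pseudocounts, shared hairpins and each replicate left out.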

Additional observations from a re-analysis of the deposited data

Results flagged for a closer look

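Opposite-strand counts, which enter no level given above, exceeded the 3 counts that a count of 0 allows at 2 members. At Gm24111 they were 290 in replicate 1 and 147 in replicate 2, the same numbers as the sense counts of Mirlet7f-1, which lies across from it. At Gm24157, which lies in an intron of Gm26551 and opposite coding sequence of the phosphatase gene Ppp2ca, they were 6 in replicate 2 and 1 in replicate 1.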

How the results depend on the processing

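The number of Gm-named genes with counts was 58 in the either-strand column and 17 in the opposite-strand column. It was 23 with at least 1 count in each library, 8 with at least 10 in each and 29 without hairpins that share 20 bases. Leaving out each replicate in turn gave 34 to 40. The summed level of 82.7 CPM was 42.0 over all reads, 42.9 without Gm23935 and 35.6 without hairpins that share sequence, and 55.9 to 109 with each replicate left out. Replicate 1 was the higher library in the summed level, but without hairpins that share sequence, as without Gm23935, replicate 2 was (28.0 and 43.3 CPM). Scaling by TMM or DESeq2 size factors moved the sum by less than its SD. In each of 4 alternatives to the binomial test 4 members differed between the replicates. All 52 recomputed log2 ratios of the 13 tested members, 4 alternatives each, kept their sign and their side of the threshold. With 1 replicate left out no comparison between the replicates is possible. Depth limits the set: 1 count equals 0.132 CPM in replicate 1 and 0.101 in replicate 2, and 27 of the 51 members had at most 3 counts.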

Other observations

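The genes around 3 members belong to the Hsp90 chaperone system, a grouping made after the values were seen. Gm25745 in Hsp90b1 had 6 and 9 counts. Gm47279 in Ahsa2 and Gm47293 in Ahsa1, genes of co-chaperones that stimulate the Hsp90 ATPase, had 0 counts in replicate 1 and 1 in replicate 2 each. The Ahsa models share at least 20 bases with each other. The share of such host genes among all microRNA models was not counted, so no pattern can be read from this grouping.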
